A study of Mus musculus with 6 samples.

Results

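The 38 genes described here encode proteins that carry a cell through mitosis: kinases and phosphatases of mitotic entry, the chromosomal passenger complex, the arm that controls the anaphase-promoting complex, spindle proteins, cytokinesis proteins and a few further mitotic proteins. They were chosen by name for these functions, with earlier results of these data known, and 38 of 38 were measured among the 19938 genes tested. Their levels were compared between 3 arrays of RAW264.7 cells transfected with a miR-342-3p mimic and 3 arrays of RAW264.7 cells transfected with a negative control mimic, with RNA taken 18 h after transfection. RAW264.7 is a mouse macrophage line transformed by a leukaemia virus, so its cells divide in culture, unlike most tissue macrophages. A mimic is a synthetic duplex RNA that stands in for the mature microRNA; both groups carried a transfected RNA, and no untransfected cells enter the comparison. Each value is a log2 level from 1 probe set on an Affymetrix whole-transcript array, and a change is the miR-342-3p mean minus the control mean. Over all genes tested, miR-342-3p replicate 3 correlated with the control arrays at 0.9958 to 0.9961. It correlated less closely with the other miR-342-3p arrays, at 0.9917 and 0.9926. Within the miR-342-3p group the lowest correlation was between replicates 1 and 2, at 0.9909.

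Mitosis is started by CDK1 with its B-type cyclins. WEE1 and PKMYT1 hold CDK1 off by phosphorylation, the CDC25 phosphatases remove that block, and Aurora A with its activator BORA switches on PLK1, which reinforces the same step. Greatwall, the product of Mastl, then keeps the opposing phosphatase PP2A-B55 inactive. Once chromosomes are attached to the spindle, the anaphase-promoting complex marks securin and cyclin B for destruction, separase opens the sister chromatids, and the central spindle directs the cleavage furrow. Most of these genes are transcribed late in the cell cycle, and many carry a short promoter element called CHR that the MuvB complex binds, often together with CCAAT boxes.

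The transfected microRNA defines the comparison, and its mature mouse form is therefore shown, with the seed, bases 2 to 8, in capitals (RefSeq, build GRCm38.p6, chr12:108658680-108658702, + strand).
miR-342-3p: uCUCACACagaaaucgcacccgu

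For the called genes whose promoters held both CHR and CCAAT letters, 30 bases around the CHR are shown, since most of the promoters read held this element (RefSeq, build GRCm38.p6, read 5′ to 3′ on the strand of the gene, CHR letters in capitals).
Depdc1a, chr3:159495405-159495434, + strand: cgctcggagataTTCAAAtcagcagcgcgg
Hmmr, chr11:40733412-40733441, - strand: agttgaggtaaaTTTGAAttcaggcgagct
Top2a, chr11:99024195-99024224, - strand: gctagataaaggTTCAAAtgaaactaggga
Fbxo5, chr10:5805445-5805474, - strand: ttgggcaccaaaTTCAAAgattttaaaagt
Racgap1, chr15:99651634-99651663, - strand: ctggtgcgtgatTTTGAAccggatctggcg
Prc1, chr7:80294434-80294463, + strand: cctctggctcggTTTGAAttccgcggggtc
Ckap2, chr8:22185903-22185932, - strand: gctttgttcgatTTTGAAatttctcgccgg
Aurka, chr2:172370521-172370550, - strand: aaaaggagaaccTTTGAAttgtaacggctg
Where a promoter held several CHR matches, the match nearest the annotated start is shown. Top2a also held matches at -179, -140 and -120. Counted from the annotated start, the first base of the element shown lay at -101 in Ckap2, the farthest upstream of those shown. It lay at 33 in Aurka, the farthest downstream. TTCAAA is TTTGAA read on the other strand.

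The mitotic genes were mostly lower in the miR-342-3p arrays. Of the 38, 21 fell (55.3%) and 0 rose at a false discovery rate (FDR) under 0.1 (limma, Benjamini-Hochberg adjusted over all genes tested), where 7.42% of all genes tested fell and 4.14% rose. At an unadjusted p under 0.05, 29 were lower and 0 higher, against 13% of all genes lower and 12.5% higher. The median change of the 38 was -0.41, against 0.07 over all genes tested, and 37 of 38 had a change below 0, against 35.5% of all genes. In 32 of 38 (84.2%) every miR-342-3p array lay below every control array, against 15.5% of all genes tested. The called changes ran from -1.23 for Depdc1a to -0.23 for Pkmyt1. The count depends on single arrays: 0, 1 and 2 mitotic genes were called lower without control replicates 1, 2 and 3, and 13, 23 and 26 without miR-342-3p replicates 1, 2 and 3. The calls over all genes moved the same way: 0.512%, 0.577% and 0.702% of all genes were lower without the control replicates in that order, and 4.95%, 9.18% and 12.1% without the miR-342-3p replicates. Bora alone was called without control replicate 2, and Bora and Melk without control replicate 3, so every other call among the 38 is lost when any control array is left out. The median change stayed between -0.44 and -0.29 with 1 array left out. RNA of whole cultures was measured, so fewer dividing cells and less of these RNAs per cell cannot be told apart.

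**Figure D1:**
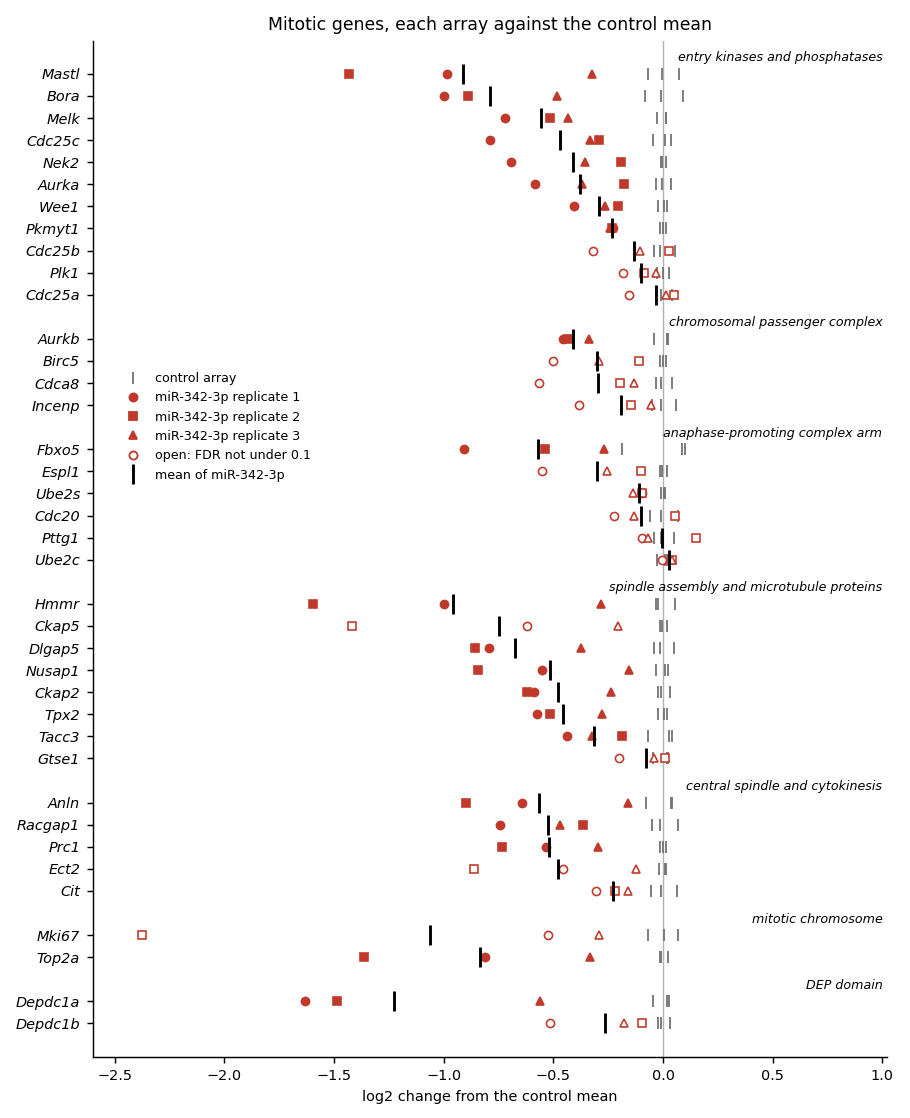
Each row is 1 mitotic gene, grouped by role, and the horizontal axis is the log2 difference of each array from the mean of the 3 control arrays; grey ticks are control arrays, red marks the 3 miR-342-3p arrays by replicate (filled at FDR under 0.1, open otherwise) and black bars the miR-342-3p mean. The control arrays stay close to 0, while Depdc1a, Mki67 and Hmmr reach furthest to the left and Ube2c, Pttg1 and Cdc25a sit at the controls.

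The kinases and phosphatases of mitotic entry were lower in 8 of 11 genes, with a median change of -0.38. Bora, the activator of Aurora A towards PLK1, read 9.25, 9.15 and 9.08 in the control arrays and 8.16, 8.27 and 8.68 in the miR-342-3p arrays. The groups did not overlap, and Bora fell by 0.79 ± 0.13 (SE, n = 3 per group; limma FDR = 0.019). Aurka, which encodes Aurora A itself, read 10.80, 10.77 and 10.84 in controls and 10.22, 10.63 and 10.43 with miR-342-3p, a change of -0.38 ± 0.11 (SE; limma FDR = 0.074). Plk1, the kinase that both act on, differed little: it read 11.36, 11.34 and 11.39 in controls and 11.18, 11.28 and 11.33 with miR-342-3p. Its change of -0.10 had a 95% interval from -0.27 to 0.07 and missed the threshold (limma FDR = 0.398), although the groups did not overlap. Whether the changes of Bora, Aurka and Plk1 differ from each other was not tested.

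Mastl, the Greatwall kinase, had the largest fall among the entry genes. It read 9.06, 8.98 and 8.92 in control arrays and 8.0, 7.55 and 8.66 with miR-342-3p. Replicate 2 was the lowest and replicate 3 the nearest to the controls, and the gene fell by 0.91 ± 0.23 (SE; limma FDR = 0.057), to 53.1% of the control level on the linear scale. Melk, a kinase abundant in dividing cells, read 8.29, 8.28 and 8.25 in controls and 7.55, 7.75 and 7.84 with miR-342-3p. Its arrays were closer together than those of Mastl, and it fell by 0.56 ± 0.09 (SE; limma FDR = 0.019), the smallest FDR of the 38. Nek2, a kinase that separates the centrosomes, read 9.56, 9.54 and 9.54 against 8.85, 9.35 and 9.19, a change of -0.41 ± 0.12 (SE; limma FDR = 0.082). Its change was -0.27 without miR-342-3p replicate 1, the array that lay lowest. Mastl and Aurka missed the threshold without miR-342-3p replicate 1 (limma FDR = 0.146 and 0.108).

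Both arms that set the inhibitory phosphorylation of CDK1 held called genes. Wee1, an inhibitory kinase, fell by 0.29 ± 0.08 (SE; limma FDR = 0.070), from 9.73, 9.74 and 9.70 to 9.32, 9.52 and 9.46. Pkmyt1, the membrane-bound inhibitory kinase, read 9.61, 9.58 and 9.60 in controls and 9.37, 9.37 and 9.36 with miR-342-3p. It was the 1 mitotic gene whose miR-342-3p arrays were closer together than its control arrays, and it fell by 0.23 ± 0.07 (SE; limma FDR = 0.084). With quantile normalization repeated on the genes tested, the change of Pkmyt1 was -0.18 and missed the threshold (limma FDR = 0.140). Among the activating phosphatases, Cdc25c read 8.04, 7.99 and 8.07 in controls and 7.24, 7.74 and 7.70 with miR-342-3p, a change of -0.47 ± 0.13 (SE; limma FDR = 0.069). That change was -0.31 without miR-342-3p replicate 1, and it narrowly missed the threshold with repeated quantile normalization (-0.47, limma FDR = 0.1002). For the relatives Cdc25a and Cdc25b the arrays of the groups overlapped, with changes of -0.03 (95% interval -0.22 to 0.16; limma FDR = 0.818) and -0.13 (95% interval -0.36 to 0.09; limma FDR = 0.395), and the change of Cdc25a was 0.023 with repeated quantile normalization. The differences among the 3 phosphatases were not tested.

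**Figure D2:**
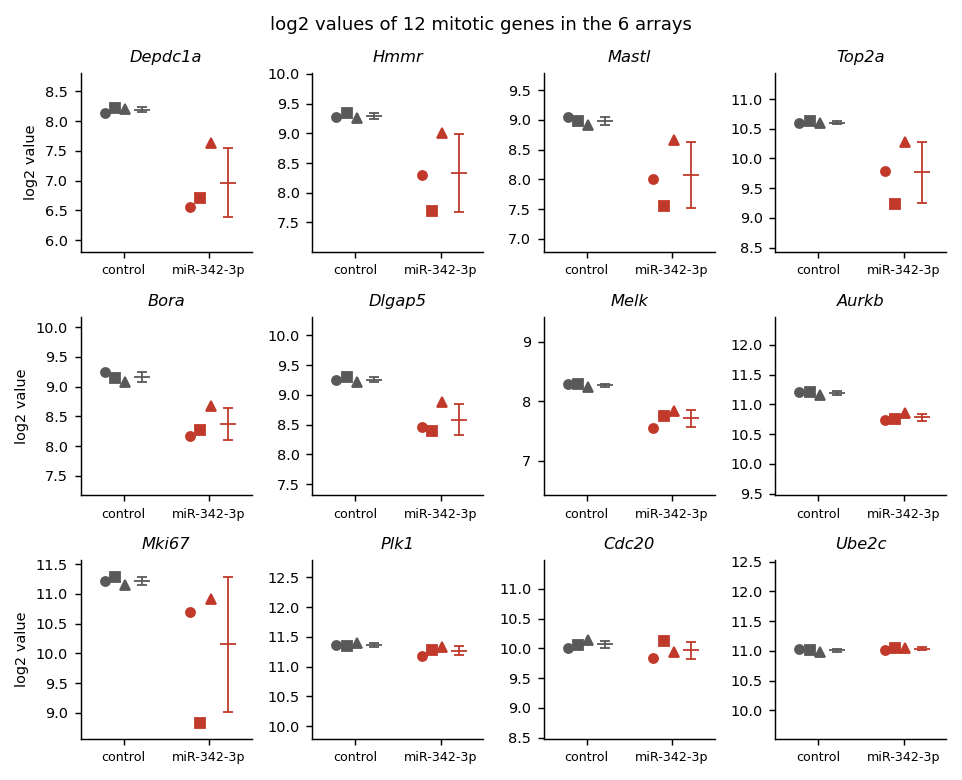
Log2 levels per array of selected mitotic genes in control and miR-342-3p cells, with the mean and SD of 3 arrays as bars; each vertical axis spans 3 log2 units so that panels can be compared in height, though not in level. The 3 control points nearly coincide in most panels, and miR-342-3p replicate 2 of Mki67 stands far below the other arrays.

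The chromosomal passenger complex corrects wrong attachments of chromosomes to the spindle and later directs the furrow. Of its 4 genes, Aurkb, the kinase subunit, fell. It read 11.21, 11.21 and 11.15 in controls and 10.73, 10.76 and 10.85 with miR-342-3p, a change of -0.41 ± 0.07 (SE; limma FDR = 0.025), with little spread in either group. The other subunits were lower in all miR-342-3p arrays than in all control arrays but missed the threshold. Birc5, which encodes survivin, changed by -0.30 ± 0.10 (SE; limma FDR = 0.120), Cdca8, which encodes borealin, by -0.30 ± 0.12 (SE; limma FDR = 0.155) and Incenp, the scaffold, by -0.19 ± 0.10 (SE; limma FDR = 0.239). The side of the threshold depended on single arrays: Birc5 passed without miR-342-3p replicate 2 (limma FDR = 0.051), and Cdca8 passed without replicate 3 (limma FDR = 0.075). Without miR-342-3p replicate 1 the changes were smaller, at -0.20 for Birc5, -0.16 for Cdca8 and -0.10 for Incenp. Birc5 also passed with repeated quantile normalization, a filter on level and array weights (limma FDR = 0.085, 0.095 and 0.069).

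The genes around the anaphase-promoting complex moved least, with a median change of -0.11 and 1 of 6 called lower. That gene was Fbxo5, which encodes EMI1, the inhibitor that keeps the complex off before mitosis. It read 8.78, 8.50 and 8.79 in control arrays and 7.78, 8.16 and 8.42 with miR-342-3p. Control replicate 2 lay nearer to the miR-342-3p arrays than the other controls did, and the gene fell by 0.57 ± 0.16 (SE; limma FDR = 0.070). The call was lost without miR-342-3p replicate 1 or 2 (limma FDR = 0.123 and 0.104) and with array weights (limma FDR = 0.110). Espl1, which encodes separase, read below all controls in every miR-342-3p array but missed the threshold, with a change of -0.30 ± 0.11 (SE; limma FDR = 0.142); without miR-342-3p replicate 2 it passed (limma FDR = 0.063), and without replicate 1 its change was -0.18.

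Cdc20, Ube2c and Ube2s, which act with the complex, and Pttg1, whose product the complex marks for destruction, gave values near the controls. Cdc20, the mitotic activator, read 10.01, 10.06 and 10.14 in controls and 9.84, 10.12 and 9.94 with miR-342-3p, a change of -0.10 with a 95% interval from -0.31 to 0.11. Ube2c, the ubiquitin-conjugating enzyme that starts the chain, read 11.03, 11.02 and 10.98 against 11.01, 11.05 and 11.05. The groups overlapped in both genes, and the change of Ube2c was 0.03, with a 95% interval from -0.13 to 0.18 and a value of -0.045 once each array was centred on its median. Pttg1, which encodes securin, the guard of separase, read 10.16, 10.07 and 10.10 against 10.01, 10.26 and 10.04. Its change was close to 0, with a 95% interval from -0.20 to 0.20 and a value of 0.061 with repeated quantile normalization. Ube2s, which extends the ubiquitin chain, was lower in every miR-342-3p array, at 11.45, 11.45 and 11.41 against 11.55, 11.53 and 11.55, and its change of -0.11 had a 95% interval from -0.27 to 0.05. A second probe set for Ube2s gave -0.09.

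Spindle assembly and microtubule proteins were lower in 6 of 8 genes, with a median change of -0.50. Hmmr, a microtubule-binding protein of the spindle poles, read 9.27, 9.34 and 9.26 in controls and 8.29, 7.70 and 9.01 with miR-342-3p. Replicate 2 was the lowest and replicate 3 lay close to the controls, and the change was -0.96 ± 0.27 (SE; limma FDR = 0.072). Dlgap5, which stabilises the fibres at the chromosomes, read 9.24, 9.31 and 9.22 against 8.46, 8.40 and 8.88, a change of -0.67 ± 0.12 (SE; limma FDR = 0.025). Tpx2, the spindle activator of Aurora A, read 10.71, 10.67 and 10.70 against 10.12, 10.18 and 10.42, a change of -0.46 ± 0.09 (SE; limma FDR = 0.032). Aurka, Bora and Tpx2 were thus all called lower and Plk1 was not, but differences among these genes were not tested.

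Of the remaining spindle genes, Nusap1, a microtubule bundler, fell by 0.52 ± 0.15 (SE; limma FDR = 0.083). Ckap2, a microtubule stabiliser, fell by 0.48 ± 0.11 (SE; limma FDR = 0.042), and Tacc3, which crosslinks spindle fibres, fell by 0.32 ± 0.09 (SE; limma FDR = 0.072). Ckap5, a microtubule polymerase and the binding partner of TACC3, read 9.61, 9.63 and 9.60 in controls and 8.99, 8.20 and 9.41 with miR-342-3p. Replicate 2 stood well below the other arrays, the change was -0.75 ± 0.25 (SE; limma FDR = 0.115), and without that replicate it was -0.41 and passed (limma FDR = 0.090), as it did without replicate 3 (limma FDR = 0.021). Gtse1, a microtubule-associated protein, overlapped between groups, with a change of -0.08 and a 95% interval from -0.26 to 0.11. Hmmr and Tacc3 missed the threshold without miR-342-3p replicate 1 (limma FDR = 0.169 and 0.112) and Nusap1 without replicate 1 or 2 (limma FDR = 0.177 and 0.109). Hmmr also missed it with a trended and robust prior (limma FDR = 0.101), and Nusap1 with repeated quantile normalization (limma FDR = 0.137) and with array weights (limma FDR = 0.110).

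Of the 5 central spindle and cytokinesis genes, 3 fell, with a median change of -0.52 over the 5. Prc1, which bundles the antiparallel microtubules of the central spindle, read 9.83, 9.85 and 9.86 in controls and 9.31, 9.11 and 9.55 with miR-342-3p, a change of -0.52 ± 0.11 (SE; limma FDR = 0.036). Racgap1, the centralspindlin subunit, read 10.40, 10.52 and 10.44 against 9.71, 10.09 and 9.98, a change of -0.53 ± 0.11 (SE; limma FDR = 0.031). The falls were close in size, but the lowest array was replicate 2 for Prc1 and replicate 1 for Racgap1. Anln, which encodes the furrow scaffold anillin, read 10.46, 10.34 and 10.46 against 9.78, 9.53 and 10.26, a change of -0.57 ± 0.16 (SE; limma FDR = 0.079). Ect2, the exchange factor that activates RHOA at the furrow, changed by -0.48 ± 0.16 (SE; limma FDR = 0.113), and citron kinase, the product of Cit, by -0.23 ± 0.08 (SE; limma FDR = 0.119). Without miR-342-3p replicate 3, Ect2 and Cit passed (limma FDR = 0.016 and 0.078), and without replicate 2 the change of Ect2 was -0.29. Anln missed the threshold without replicate 1 or 2 (limma FDR = 0.182 and 0.117), with repeated quantile normalization (limma FDR = 0.120) and with array weights (limma FDR = 0.110).

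The genes of the mitotic chromosome had large changes and a wide spread between arrays. Top2a, the topoisomerase that untangles sister chromatids, read 10.59, 10.63 and 10.60 in controls and 9.79, 9.24 and 10.27 with miR-342-3p, a change of -0.84 ± 0.21 (SE; limma FDR = 0.059). A second, dimmer probe set for Top2a changed by -0.83, but there replicate 2, at 5.84, lay above the controls at 5.81, 5.69 and 5.54, while replicates 1 and 3 read 3.75 and 4.96. Mki67, which encodes the proliferation marker Ki-67, a protein that coats mitotic chromosomes, read 11.21, 11.28 and 11.14 in controls and 10.69, 8.84 and 10.92 with miR-342-3p. One array carried much of this difference: the change was -1.06 ± 0.45 (SE, 95% interval -2.09 to -0.04) and missed the threshold (limma FDR = 0.185), whereas without replicate 2 it was -0.41 and passed (limma FDR = 0.057). Mki67 also passed without replicate 3 (limma FDR = 0.078), and Top2a missed the threshold without replicate 1 (limma FDR = 0.133).

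The largest fall of the 38 was that of Depdc1a, a DEP-domain protein of dividing cells. It read 8.14, 8.22 and 8.21 in control arrays and 6.55, 6.70 and 7.63 with miR-342-3p. All miR-342-3p arrays lay far below the controls, and the change of -1.23 ± 0.24 (SE; limma FDR = 0.028) left 42.7% of the control level on the linear scale. A second probe set for Depdc1a gave -1.19. Its relative Depdc1b, measured at 7.11, 7.06 and 7.07 in controls and 6.56, 6.98 and 6.90 with miR-342-3p, changed by -0.26 ± 0.11 (SE; limma FDR = 0.182), and it passed without replicate 2 (limma FDR = 0.096), while its change was -0.14 without replicate 1.

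**Figure D3:**
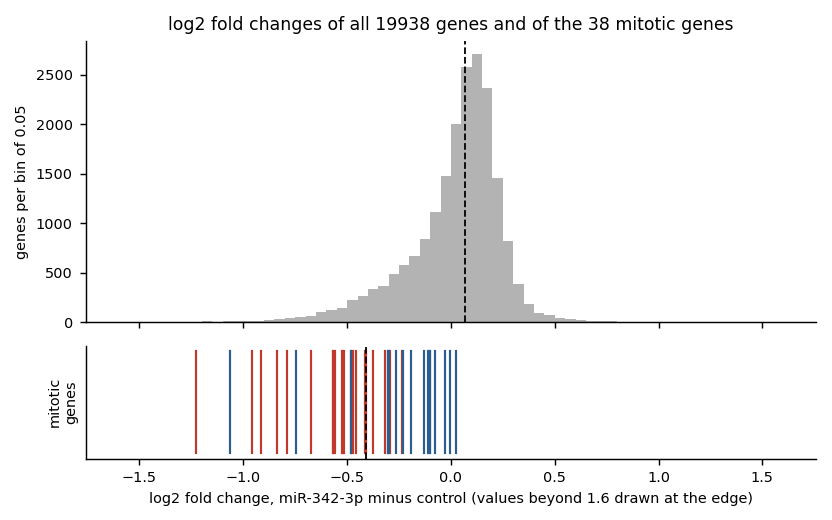
Distribution of log2 changes over all genes tested (grey) with the 38 mitotic genes marked below (red, FDR under 0.1 and lower; blue, not called); dashed lines are the medians, at 0.07 for all genes and -0.41 for the mitotic genes. The mitotic genes lie to the left of the main body, and 37 of 38 are below 0.

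Other genes of the same machinery were counted from 6 lists of named mitotic genes, 68 of them measured. Of these, 22 fell and 0 rose. Changes were below 0 in 63 (92.6%), against 35.5% of all genes tested, and the median change was -0.20, against 0.07. In 38 of the 68 (55.9%) every miR-342-3p array lay below every control array, against 15.5% of all genes tested. At an unadjusted p under 0.05, 31 were lower and 1 was higher, against the same 13% and 12.5% of all genes. The share called lower was 32.4%, against 7.42% of all genes tested. By single arrays, 0, 1 and 3 of the 68 were called lower without control replicates 1, 2 and 3, and 16, 27 and 28 without miR-342-3p replicates 1, 2 and 3. The shares of all genes called lower with these arrays left out are those given above. Haus1 was the gene called without control replicate 2, and Ccnb2, Lin9 and Haus1 were those called without control replicate 3.

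Among CDK1 and its cyclin partners, 2 of 6 fell: Ccnb2, a B-type cyclin, changed by -0.45 (limma FDR = 0.026) and Ccna2, cyclin A, by -0.32 (limma FDR = 0.070). Among the B-MYB, FOXM1 and MuvB genes, which drive late cell cycle transcription, 3 of 7 fell: the MuvB subunit Lin9 changed by -0.72 (limma FDR = 0.021), the MuvB subunit Lin54 by -0.37 (limma FDR = 0.056), and Mybl2, which encodes B-MYB, by -0.38 (limma FDR = 0.068). LIN54 is the subunit that contacts the CHR. Subunits of the anaphase-promoting complex fell in 2 of 15, with a median of -0.15. The called genes were Anapc15, with a change of -0.59 (limma FDR = 0.033), and Cdc26, with -0.30 (limma FDR = 0.073). Changes were below 0 in 13 of the 15, but Anapc7 changed by 0.30 and missed the threshold (limma FDR = 0.107). Without miR-342-3p replicate 1, Lin54 and Mybl2 missed the threshold (limma FDR = 0.107 and 0.120).

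In the arm of Greatwall and PP2A-B55, 2 of 8 fell: Arpp19, the phosphatase inhibitor that Greatwall switches on, changed by -0.61 (limma FDR = 0.051) and Ppp2r2d, a B55 subunit of the phosphatase, by -0.42 (limma FDR = 0.044). The other 6 were not called, among them Ensa, the other Greatwall substrate, with a change of -0.02 (limma FDR = 0.862), and Ppp2r2a, another B55 subunit, with -0.09 (limma FDR = 0.487), and the median of the 8 was -0.08. Augmin and spindle nucleation genes fell in 5 of 16, led by the augmin subunits Haus6, which changed by -1.01 (limma FDR = 0.026), and Haus1, which changed by -0.71 (limma FDR = 0.019). Ckap2l, a relative of Ckap2, changed by -0.43 (limma FDR = 0.086). Cytokinesis and abscission genes fell in 8 of 16, led by the formin Diaph3, with a change of -0.90 (limma FDR = 0.041), the kinesin Kif14, with -0.72 (limma FDR = 0.021), and the midbody protein Cep55, with -0.71 (limma FDR = 0.028). Without miR-342-3p replicate 1, Diaph3 and Ckap2l missed the threshold (limma FDR = 0.102 and 0.137), and Cdc26 and Ckap2l missed it with repeated quantile normalization (limma FDR = 0.173 and 0.164). The change of Ckap2l was -0.28 without miR-342-3p replicate 2.

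The replicates of the miR-342-3p group did not move the 38 genes alike. The median SD over 3 arrays was 0.04 in controls and 0.21 with miR-342-3p, and the miR-342-3p SD was the larger in 37 of 38 genes, against 84.9% of all genes tested. The median difference from the control mean was -0.54 in replicate 1, -0.26 in replicate 2 and -0.26 in replicate 3. Replicate 1 held the lowest value for 25 of the 38 genes, replicate 2 for 11 and replicate 3 for 2. Among the 21 mitotic genes called lower, replicate 1 was lowest for 12 (57.1%), replicate 2 for 8 (38.1%) and replicate 3 for 1 (4.76%). Among all genes called lower, these shares were 65.7%, 31.3% and 2.97%. Replicate 3 held the highest miR-342-3p value for 21 of the 38. It did so for 14 of the 21 called (66.7%), against 74.0% of all genes called lower.

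Genes in which replicate 2 was the lowest included Mki67, Hmmr, Mastl, Ckap5, Top2a, Ect2, Anln, Nusap1 and Prc1. Genes in which replicate 1 was the lowest, with replicate 2 nearest to the controls, included Nek2, Aurka, Cdc25c, Racgap1, Birc5 and Espl1. Both sets hold genes of several roles. Across all genes tested, the correlations between miR-342-3p arrays were also lower than those between control arrays, at 0.991 to 0.993 against 0.998 to 0.999. The part of this wider spread in the mitotic results was not tested.

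**Figure D4:**
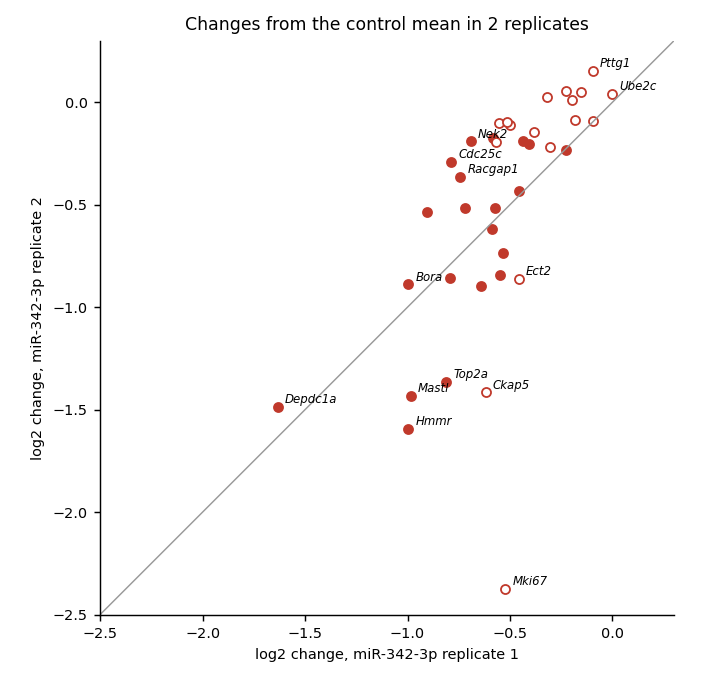
Each point is 1 of the 38 mitotic genes, placed by its log2 difference from the control mean in miR-342-3p replicate 1 (horizontal) and replicate 2 (vertical); filled points passed FDR under 0.1 and the line marks equal differences. Mki67, Ckap5, Hmmr, Mastl and Top2a lie below the line, Nek2, Cdc25c and Racgap1 above it, and Depdc1a and Bora near it.

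Promoter letters were read in the window from 250 bases before to 50 bases after each annotated start, which RefSeq held for 29 of the 38 genes, with 32 promoters. No entry was matched for Bora, Wee1, Pkmyt1, Cdc25c, Aurkb, Incenp, Tpx2, Dlgap5 and Depdc1b. The CHR letters, TTTGAA or TTCGAA on either strand, stood in 21 of 32 promoters (65.6%), against 19.2% of all 32851 promoters in the table, whose genes include many that are not mitotic or not protein-coding. CCAAT on either strand stood in 24 (75%) against 37.4%, and both together in 19 (59.4%) against 7.52%. In 1 case a CHR and a CCAAT shared bases. An E2F motif, searched on both strands as TTTCCCGC, TTTGGCGC, TTTCGCGC or TTTGCCGC, stood in 1 promoter (3.12%) against 2.26%.

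Holding the CHR letters did not separate the genes that fell from those that were not called. Of the 19 genes with CHR letters, 9 fell, with a median change of -0.48, and of the 10 without them, 5 fell, with a median of -0.31. Depdc1a, Hmmr and Top2a, whose CHR windows are printed above, had large falls, while Ube2c, Cdc20 and Plk1 hold CHR and CCAAT letters too and were not called. Mastl and Melk fell without CHR letters in the window. A match of letters is a description and does not show that a factor binds there.

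**Figure D5:**
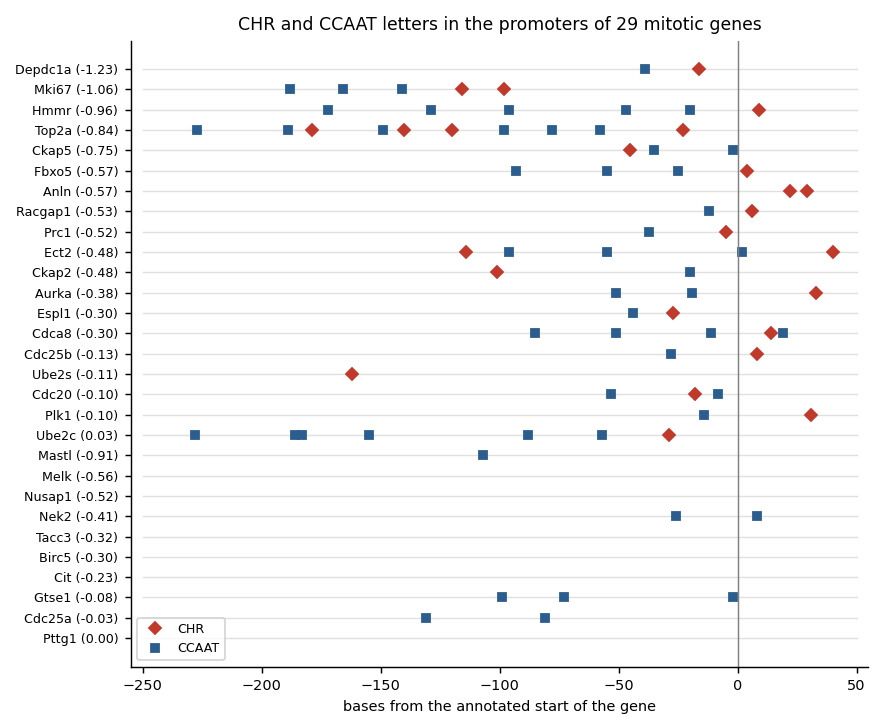
Positions of CHR letters (red diamonds) and CCAAT letters (blue squares) on either strand in the promoters of 29 mitotic genes, against bases from the annotated start, with genes ordered by presence of CHR and then by log2 change (in brackets); for the genes with several promoters the first is drawn. Ube2c and Plk1, which were not called, hold both kinds of letters, as Depdc1a and Hmmr do, and Mastl holds CCAAT without CHR letters.

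The labelled cell type was checked against its markers. Of 10 macrophage markers, 2 fell (Itgam and Fcgr1) and 2 rose (Spi1 and Mertk), and their summed linear level ran from 24746 to 25278 in control arrays and from 23844 to 25404 with miR-342-3p. Of 7 fibroblast markers measured, 1 rose (Pdgfra) and 0 fell, with sums of 803 to 841 in controls and 879 to 1089 with miR-342-3p. The log2 control means of these 7 ran from 4.72 for Lum to 7.93 for Col1a1. Their median change was 0.16, against 0.07 over all genes tested. Of 7 lymphocyte markers measured, 0 were called in either direction by limma (1 was higher at an unadjusted p under 0.05), with sums of 374 to 395 and 384 to 483. The part of these shifts in the mitotic results was not tested.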

How the data were processed

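Total RNA from 6 RAW264.7 samples (3 per mimic) was amplified and labelled from 150 ng and hybridised to Affymetrix mouse gene arrays. The deposited log2 values, 1 for each probe set on each array, come from RMA as run by the authors, which subtracts background, equalises the distributions of the arrays (compressing any global shift) and summarises probes; software versions are not given in the sources used here. Of 35556 probe sets, 21789 named 1 gene, 1621 several and 12146 none. For each of 19938 genes the most variable probe set (by interquartile range over the 6 arrays) was kept, as in the study's methods. Groups were compared with limma 3.58.1 in R 4.3.3 (lmFit, eBayes), with Benjamini-Hochberg adjustment over all genes and calls at FDR under 0.1, the study's threshold. The study reports more genes called in each direction at this threshold, and the reason for the difference was not tested. Arrays carry no read depth, and 3 per group limit the precision. The labels number the replicates; the study calls them independent experiments, while the labels do not say whether they were separate cultures, and otherwise p-values measure technical spread. The members and lists were chosen with earlier results of these data known. Named genes were all members and, from each other mitotic list, up to 3 called genes with the largest change. Outside this rule, Anapc7, Ensa and Ppp2r2a were named although not called. Alternatives covered the probe set rule, normalization, filter, prior, weights, replicate block, the threshold and each array left out. A further alternative was an ordinary t-test without the limma prior, which is not the array test of the study.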

Additional observations from a re-analysis of the deposited data

How the results depend on the processing

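The count of 21 mitotic genes called lower stayed within 1.5 times under the probe set, centring, normalization, filter, prior and weight alternatives, and 0 were called higher under any alternative run. It was 9 at FDR under 0.05, where 661 of all 19938 genes tested were lower. With 1 array left out it was between 0 and 26, and the shares of all genes are given above. With an ordinary t-test and Benjamini-Hochberg adjustment it was 1, where 22 of all genes tested (0.11%) were lower. For the other mitotic genes called lower, the 22 became 12 at FDR under 0.05 and 0 with the ordinary t-test. With 1 array left out, that count was between 0 and 28. The count called higher was 1 with repeated quantile normalization, 1 with a filter on level and between 0 and 1 with 1 array left out. Signs turned only for changes close to 0 that were not called: Cdc25a was 0.023 and Pttg1 0.061 with repeated quantile normalization, Ube2c was -0.045 with each array centred on its median, and with 1 array left out Cdc25a ranged from -0.071 to 0.032 and Pttg1 from -0.081 to 0.043. Over all genes, centring changed the calls from 1479 lower and 825 higher to 2009 and 376, and repeated quantile normalization to 1453 and 1414. The median change of the 38 mitotic genes was -0.48 with centring and -0.35 with repeated quantile normalization. Over all genes these medians were -0.001 and 0.020. Same-numbered arrays did not deviate together (correlations of -0.31, -0.16 and -0.11). With 3 arrays per group, these correlations cannot decide whether the numbers pair the samples. With the replicate block, 21 mitotic genes and 21 other mitotic genes were called lower, against 7.25% of all genes tested. Under it Wee1, Pkmyt1 and Tacc3 (FDR = 0.138, 0.225 and 0.114) were not called and Ckap5, Ect2 and Mki67 (FDR = 0.025, 0.054 and 0.046) were, all by limma. The cause of these shifts was not tested.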
